A study of Macaca mulatta with 24 samples.

Results

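Narrow unmethylated tiles were 1000-bp windows dense in measured CpG sites, low in methylation, and not inside a long low stretch. The genome was cut into fixed windows on chromosomes 1 to 20, and a tile became a member when it held at least 20 CpG positions with a mean methylation level under 10% over all 24 animals. A tile was left out when it lay in a run of 3 or more consecutive tiles that each had at least 3 measured CpGs and a mean under 10%. The rule found 3555 members, which made up 2.33% of the 152858 tiles with any measured CpG and 63.5% of the 5601 tiles with at least 20. They held 100876 CpG positions, or 11.99% of the 841143 in the table. The members were thus chosen by their mean methylation over these same animals, and the levels given for them are a description and were not tested.

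The values came from reduced representation bisulfite sequencing (RRBS) of omental white adipose tissue (WAT), a visceral fat depot, from 24 female rhesus macaques in 4 groups of 6. Control animals (C) had cholesterol implants and ate chow, and T animals had testosterone implants on the same chow. WSD animals had cholesterol implants and a high-fat western-style diet, and T+WSD animals had testosterone implants together with that diet. All were sampled in year 3 of treatment, each animal gave its own library, and the labels give an age of 4 years for every animal, whereas the methods of the study place the biopsies at a later age. The study picked these animals as representative of their groups, which limits them as a random sample of treated animals. The labels number the C and T+WSD animals 1 to 12 and the T and WSD animals 13 to 24 and name no batch. An interaction of testosterone and diet can therefore not be told apart from a batch of animals 1 to 12 against 13 to 24. The same holds for T against C and for WSD against C, whereas T+WSD against C lies within animals 1 to 12. Adipose tissue is a mixture of cells, and an intermediate percentage in it does not say whether all cells or some of them carry the mark.

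DNA methylation in mammals is placed mostly on cytosines followed by guanine, and most such sites in the genome are methylated. CpG islands are short exceptions where CpGs are dense and remain free of methylation in almost every tissue, and many of them overlap gene promoters. Gain of methylation across an island is known to accompany lasting silencing of the gene it serves. RRBS cuts DNA with MspI at CCGG sites and keeps short fragments, which favours such dense sequence and leaves the sparse DNA around it largely unread. The build of the positions is rheMac8, no sequence of that build was used here, and the tiles are therefore named by position only. Their gene content, and the markers of adipocytes and other cells of the depot, were not analysed here.

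A typical member was almost free of methylation. The median of the tile levels was 1.03%, and 9 in 10 members lay between 0.500% and 6.48%. By comparison, the mean over all CpGs of the table was 50.7%. Of the 3555 members, 1722 (48.4%) had a mean under 1%, 929 (26.1%) lay from 1% to under 2%, 607 (17.1%) from 2% to under 5%, and 297 (8.35%) from 5% to under 10%. A member held a median of 26 measured CpGs and at most 89, spread over a median of 486 bp with 7 bp between neighbouring CpG positions. The measured part of a typical member was thus shorter than the tile.

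Inside a member the CpGs were alike. The SD over the CpGs of a tile had a median of 1.26 percentage points, and the most methylated CpG of a tile had a median level of 5.01%. Only 747 of the 100876 CpGs (0.741%) had a mean of 20% or more, and 103 (0.102%) had a mean of 50% or more. Those 103 lay in 69 tiles (1.94%). Among the 297 members of 5% to under 10%, 54 (18.2%) held such a CpG and the most methylated CpG had a median of 26.9%. The middle CpG of a tile had a median of 4.52% in that band, against 0.309% in the members under 1%. How far single methylated positions made up the level of the upper band was not tested. Where the cytosines of both strands of one CpG had been measured, in 2274 pairs from 1388 members, their mean levels differed by a median of 0.601 points.

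The members with the most CpGs show how even the low level was over the animals. The tile with the most CpGs, chr7:16605001-16606000 with 89, had a mean of 4.67%, and its 24 animals ran from 2.16% to 7.53%. The tile chr20:28017001-28018000 with 69 CpGs ran from 0.133% to 3.15%, and chr14:12776001-12777000 with 69 CpGs ran from 0.397% to 3.48%. The tile chr7:114199001-114200000 with 68 CpGs ran from 0.926% to 2.88%, and chr2:93278001-93279000 with 67 ran from 0.147% to 2.86%. In all of these the groups overlapped. The highest animals of chr20:28017001-28018000 were T 13 at 3.15%, T+WSD 8 at 2.06%, C 1 at 1.89% and WSD 20 at 1.61%, around a median of 0.518%. Those of chr7:114199001-114200000 were others, T+WSD 9 and WSD 23. The lowest members were chr5:2425001-2426000 at 0.263%, chr8:129650001-129651000 at 0.293% and chr10:7020001-7021000 at 0.295%. The last of them had a measured neighbour at 82.4%.

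The threshold of 10% cut through a continuous range. Just inside it lay chr1:47211001-47212000 at 9.89%, chr7:53786001-53787000 at 9.92% and chr4:116547001-116548000 at 9.97%. Just outside lay chr19:4931001-4932000 at 10.0006%, chr4:45281001-45282000 at 10.1% and chr1:50908001-50909000 at 10.1%. The 3 inside had 12, 13 and 14 of 24 animals under 10%, and the 3 outside had 13, 12 and 15. The membership of these 6 tiles rested on fractions of a percentage point, and their animals were spread unequally, with an SD between animals from 1.39 points in chr4:45281001-45282000 to 5.88 points in chr7:53786001-53787000, where T 16 stood at 32.7%.

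Narrowness, the other part of the rule, was visible for a minority of members, because most neighbours were not measured. Each member has 2 neighbouring tiles, 7110 sides in all. No CpG had been measured on 4145 sides (58.3%), and 535 (7.52%) held 1 or 2. The measured neighbours were under 10% on 1691 sides (23.8%), from 10% to under 50% on 447 (6.29%) and at 50% or more on 292 (4.11%). Both neighbours were measured for 271 members (7.62%), 1 for 1888 (53.1%) and none for 1396 (39.3%). The label narrow therefore held as the absence of a measured long run, and only 50 members (1.41%) had a measured neighbour of 10% or more on both sides.

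Those 50 members were the clearest short unmethylated segments. Their own levels had a median of 1.67%, the lower of their neighbours a median of 21.3%, and the higher a median of 53.8%. In 6 members both neighbours were at 50% or more. The steepest was chr10:78423001-78424000, with 43 CpGs at 3.69% between neighbours at 93.2% and 93.0%. The tile chr20:655001-656000 stood at 9.19% between 94.6% and 87.0%, and chr19:6367001-6368000 at 3.26% between 92.7% and 77.5%. In the chromosome 10 tile the animals ran from 2.55% to 8.04%, and in the chromosome 19 tile the highest animal, T 16, was at 13.01%. A further 1691 members (47.6%) sat beside exactly 1 other low tile, and the tiles of such a pair are neighbours and are not counted as independent regions.

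The measured length of the low segments was limited by where CpGs had been read. The measured CpGs were cut into stretches at each CpG of 50% or more and at each gap of over 1000 bp without a measured CpG. Stretches with at least 20 CpGs of members were kept, so members split by an inner CpG of 50% or more could drop out. The 3372 stretches that resulted had a median of 745 bp with quartiles at 452 and 1110 bp. In 2751 of them (81.6%) a gap ended both sides, so that their length is a lower limit, in 584 (17.3%) a methylated CpG closed 1 side, and in 37 (1.10%) methylated CpGs closed both sides. The 37 with both borders seen had a median of 1279 bp, quartiles of 978 and 1736 bp, and a longest of 2822 bp. Tiles of the same density and level inside runs of 3 or more, 677 in all and called broad here, gave 535 stretches by the same steps. These had a median of 1779 bp, a length that the rule itself favours.

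**Figure D1:**
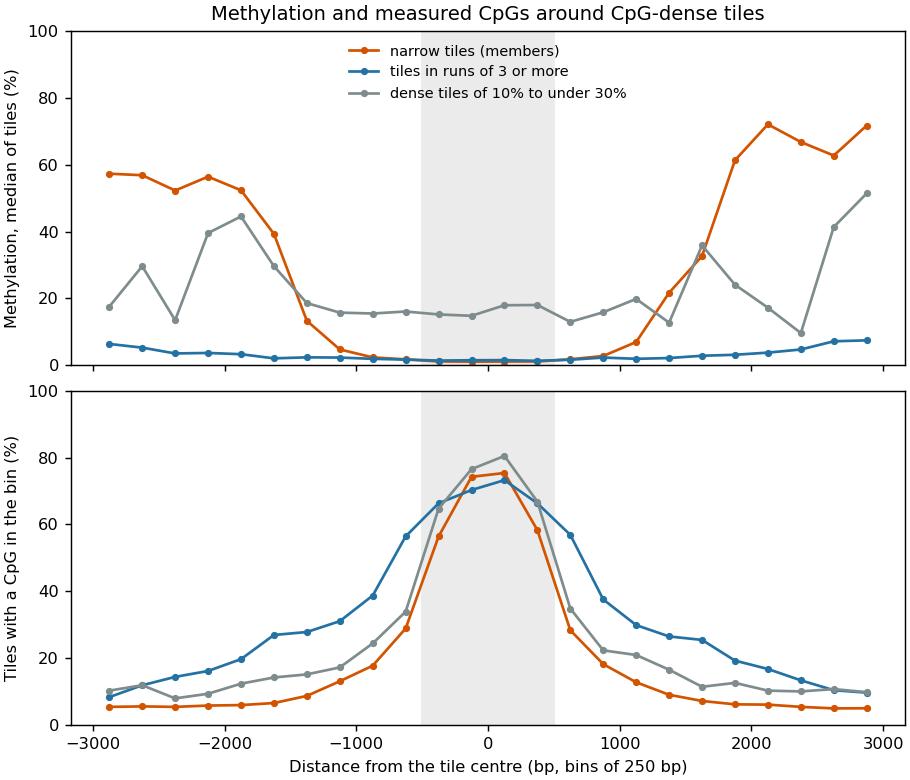
Methylation (upper panel, median over the tiles with a CpG in the bin, in %) and the share of tiles with a measured CpG (lower panel, in %) by distance from the tile centre in bins of 250 bp, for 3555 narrow tiles, 677 broad tiles and 431 dense tiles of 10% to under 30%. The narrow tiles sit near 1% inside the grey tile, pass 10% between 1000 and 1500 bp and lie above 50% beyond 1750 bp, where only about 5% to 6% of them still have a measured CpG. The rule on runs favours such a rise.

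The plot of methylation by distance shows the same edge in the bins that were read. Within the tile the median was 1.02% to 1.08%, and at 500 to 750 bp from the centre it was 1.71% on one side and 1.73% on the other. At 1000 to 1250 bp it reached 4.68% and 6.91%, at 1250 to 1500 bp 13.3% and 21.7%, and at 2000 to 2250 bp 56.4% and 72.1%. Around the broad tiles it was still 3.63% and 3.73% at 2000 to 2250 bp. The rise was read from fewer and fewer tiles, since the share of members with a CpG in the bin fell from 75.4% beside the centre to 6.02% at 2000 to 2250 bp.

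The members lay on all 20 chromosomes that the rule covered, from 45 on chromosome 18 to 313 on chromosome 1. As a share of the tiles with at least 3 CpGs they were fewest on chromosome 18, at 2.58%, and most frequent on chromosome 6, at 4.63%. As a share of the tiles with at least 20 CpGs they ranged from 49.9% on chromosome 19 to 73.9% on chromosome 4. On chromosome 19, 247 of the 495 dense tiles were members and 40 lay in runs of 3 or more low tiles, as did 677 of the 5601 dense tiles of all chromosomes, and the others were at 10% or more.

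Compared with the broad tiles, the members were as low but not as long. The broad tiles had a median of 1.37%, with 38.0% of them under 1%, and the SD between animals had a median of 0.827 points against 0.751 points in the members. CpGs of 50% or more occurred in 3 broad tiles (0.443%). The 431 dense tiles of 10% to under 30% were another kind of region, with a median of 17.7%, an SD between animals of 5.05 points and a CpG of 50% or more in 241 of them (55.9%). These are descriptions, because level and run length defined the classes.

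A measure that the rule did not use was the share of missing values, that is CpGs of the table without a value in an animal. In the members it was 3.30% on average and in the broad tiles 2.96%. The difference of 0.340 points (SD 0.431, n = 24 animals) was above 0 in 20 of 24 animals (permutation test with 100000 sign flips, two-sided p = 0.00085). Against the dense tiles of 10% to under 30% the difference was -0.0540 points (two-sided permutation p = 0.77). The missing share itself differed far more between animals than between classes, from 0.551% in T 18 to 17.4% in T 16, with 9.80% in C 5 and 9.04% in T+WSD 12. T 16, C 5 and T+WSD 12 had fewer CpGs behind their tile values, and how many reads stand behind a value was not examined here beyond the coverage filter the authors applied.

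Most single values in the members were exactly 0. On average 70.5% of an animal's values were at 0, from 62.1% in T+WSD 8 to 85.2% in T 16. Averaged over all members, the C animals stood at 1.71% ± 0.235, the T animals at 1.78% ± 0.442, the WSD animals at 1.99% ± 0.512 and the T+WSD animals at 1.88% ± 0.565 (SD, n = 6 each). The C animals ran from 1.57% to 2.18% with a median of 1.62%, and the T animals from 1.49% to 2.64% with a median of 1.59%. The WSD animals ran from 1.67% to 3.01% with a median of 1.82%, and the T+WSD animals from 1.55% to 2.999% with a median of 1.61%. The groups overlapped, and in each the SD was set by 1 high animal. These were C 1 at 2.18%, T 13 at 2.64%, WSD 20 at 3.01% and T+WSD 8 at 2.999%.

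**Figure D2:**
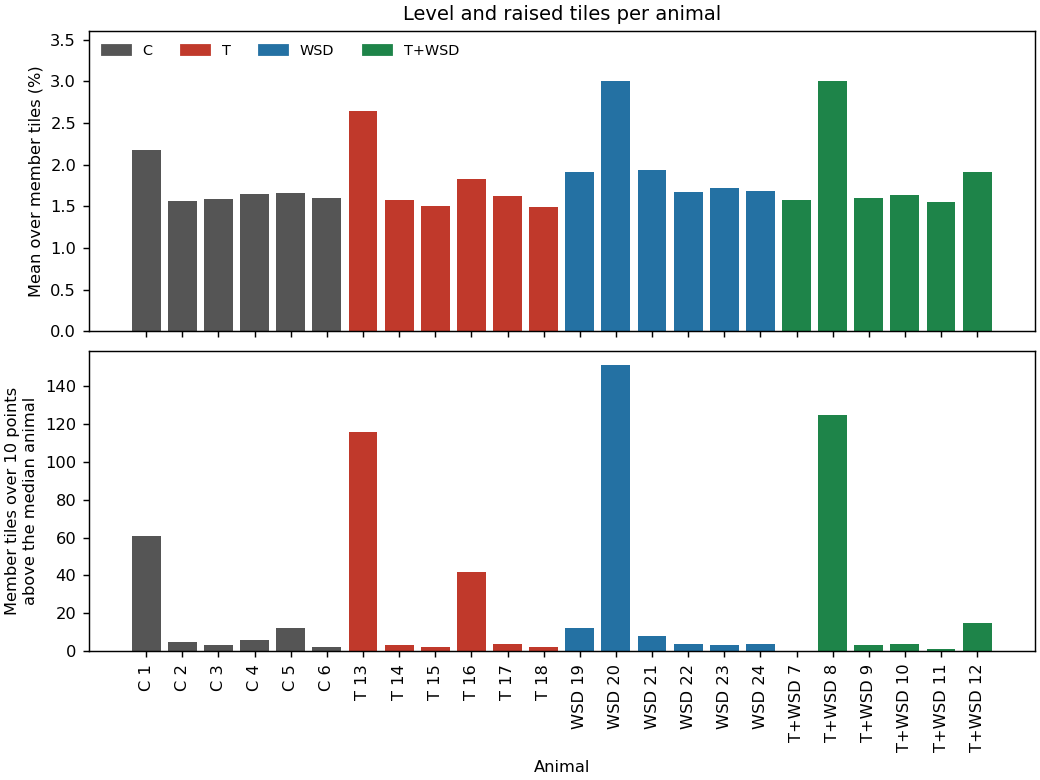
Mean methylation over the 3555 members (upper panel, in %) and the number of members more than 10 percentage points above the median of the 24 animals (lower panel), 1 bar for each animal and colours for the 4 groups. C 1, T 13, WSD 20 and T+WSD 8 stand at 2.18% to 3.01% and at 61 to 151 raised members, and T 16 has 42 raised members.

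The high means lay partly in a limited set of tiles and partly in a small shift of the others. A member was counted as raised in an animal when its level there was more than 10 points above the median of all 24 animals. WSD 20 had 151 raised members, T+WSD 8 had 125, T 13 had 116 and C 1 had 61. The next were T 16 with 42, T+WSD 12 with 15, and C 5 and WSD 19 with 12 each, and the other 16 animals had 8 or fewer. No member was lowered by as much in any animal, which a level under 10% leaves little room for. The 4 highest counts came from 1 animal of each group, and T 16 made a second high animal in T.

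At least 1 animal was raised in 288 members (8.10%), 1 animal only in 145 and 3 or more animals in 89. In 80 of the 89 at least 3 of C 1, T 13, WSD 20 and T+WSD 8 were raised, and in 45 all 4 were. Over the 89 tiles C 1 averaged 14.03%, T 13 averaged 20.2%, WSD 20 averaged 24.2% and T+WSD 8 averaged 22.5%. T 16 stood at 5.33%, WSD 19 at 4.998% and the other 18 animals at 1.44% to 3.32%. The tiles were chosen as raised, mostly in these 4 animals, so high means in them follow from the choice. The same tiles were raised in animals of different groups. Of the 61 raised in C 1, 55 (90.2%) were also raised in WSD 20, where they made up 36.4% of its raised tiles. T+WSD 8 and WSD 20 shared 93, which were 74.4% and 61.6% of their tiles, and T 13 and WSD 20 shared 90, which were 77.6% and 59.6%. No pair that included another animal shared more than 10, a count capped by the fewer raised tiles of the other animals. WSD 19 shared 7 of its 12 raised tiles (58.3%) with each of T 13, WSD 20 and T+WSD 8, and 6 (50%) with C 1. T 16 shared 10 of its 42 (23.8%) with WSD 20.

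**Figure D3:**
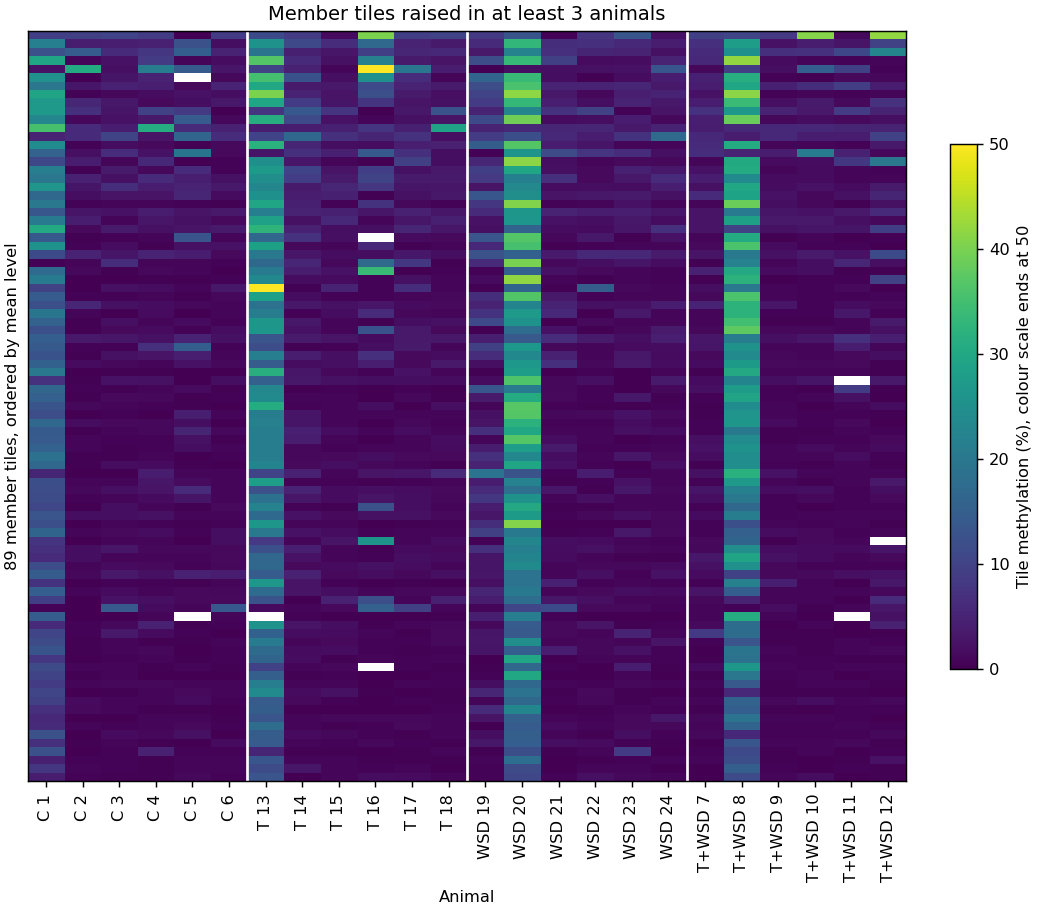
Methylation (colour, in %, with the scale ending at 50) of the 89 members raised in at least 3 animals (rows, ordered by mean level) in the 24 animals (columns, white lines between groups, white cells without a value). The columns of C 1, T 13, WSD 20 and T+WSD 8 are light over nearly the whole height, with means of 14.03% to 24.2%, and most other columns are dark, with means of 1.44% to 5.33%. The rows were chosen as raised, so this contrast carries that choice.

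The plot of the shared raised tiles shows 4 columns apart from the rest. Across all members with a value in every animal (3475 tiles), the differences from the median animal were correlated between these 4 animals, with Pearson's r of 0.672 to 0.732 over their 6 pairs. Over the other 270 pairs of animals r had a median of -0.00519 and ran from -0.160 to 0.402, the highest being C 4 with T 18. WSD 19 was at 0.249 to 0.265 with each of the 4. The tiles are not independent of each other and the 4 animals were singled out after their values were seen, so no p is given. A principal component analysis of the members put WSD 20, T+WSD 8, T 13 and C 1, in that order, at the far end of the first component, which held 34.6% of the variance. The second component, with 8.70%, was led by T 16.

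The higher levels lay on many CpGs of the shared tiles, but not on all. Tiles chosen for a raised mean tend to hold raised CpGs, so the shares below follow in part from the choice. They pool all 89 tiles, including those in which an animal was not raised. In the 89 shared tiles, which held 2847 CpGs, 60.9% of the CpGs of T+WSD 8 lay more than 10 points above their own median, against 60.4% in WSD 20, 57.6% in T 13 and 48.0% in C 1. WSD 19 followed at 15.5% and T 16 at 9.36%, and the others were at 7.60% or lower. The shared tiles lay on all 20 chromosomes, held a median of 28 CpGs, and had means from 2.27% to 9.74% with a median of 5.03%. Of these tiles 35 (39.3%) sat beside 1 other low tile, against 47.6% of all members. The tiles next to them that could be measured, 60 in all, were raised in 4 to 6 cases (6.67% to 10%) in the 4 animals and in 0 to 7 in the others. Among all members the raised share in the 4 animals was 1.72% to 4.25%. Over all tiles with at least 3 CpGs it was 6.37% (C 1), 3.88% (T 13), 5.12% (WSD 20) and 4.87% (T+WSD 8). The share of neighbours in C 1, 6.67%, was thus near that over all tiles, and the highest, 11.7%, was in T+WSD 12. The median difference of these neighbours from the median animal was 0.757 points in T+WSD 8 and 0.710 points in WSD 20. It was 0.195 points in C 1 and -0.163 points in T 13, against 0.330 points in T+WSD 12 and 0.254 points in WSD 19. The 89 tiles were chosen as raised and their neighbours were not, so this is a description and no test.

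The values of single tiles make the pattern plain. In chr6:135212001-135213000, which had the largest SD between animals, WSD 20 stood at 41.6%, T+WSD 8 at 41.3%, T 13 at 40.2% and C 1 at 29.3%, and the median of the 24 animals was 2.60%. In chr7:85489001-85490000 the 4 animals stood at 40.5%, 38.8%, 29.4% and 19.9% in that order, with a median of 0.962%. In chr3:165587001-165588000 they stood at 39.1%, 38.6%, 31.2% and 23.2%, with a median of 2.45%. All 3 tiles were therefore near 0 to 3% in the middle animal and near 20% to 42% in 1 animal of each group. In chr5:157081001-157082000 the highest was T+WSD 8 at 41.9%, followed by T 13 at 36.7%, and the median was 3.06%.

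Among the tiles with the largest gap between 1 animal and the median, some had 1 high animal and others several. The tile chr9:95111001-95112000 had 43.4% in T+WSD 8 over all of its 48 CpGs, and the next animal was at 8.45%. The tile chr11:56315001-56316000 had 41.7% in WSD 20 over all of its 27 CpGs, followed by T+WSD 8 at 32.1%, T 13 at 23.4% and C 1 at 20.7%, with a median of 0.606%, and so belongs with the tiles raised in all 4 animals. In chr1:19541001-19542000, T 13 was at 50.9% over 13 of 26 CpGs, T+WSD 8 at 20.04%, WSD 20 at 16.1% and WSD 22 at 14.7%. In contrast, the highest value of all, 58.3% for T 16 in chr14:8827001-8828000, came from 1 of its 25 CpGs. The value of 53.8% for T 16 in chr8:55136001-55137000 came from 12 of 20 CpGs, and there C 2 was at 30.5%, C 4 at 21.03% and T 17 at 19.6%. Fewer than 50% of the CpGs had a value in 9 of the 42 raised tiles of T 16 and in 5 of the 15 of T+WSD 12. The same held for 2 of the 151 of WSD 20, 1 of the 125 of T+WSD 8, and 0 of those of T 13 and C 1.

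Several measures of the libraries moved with the 4 animals and several did not, and their part in the raised tiles was not tested. The share of values at 0 was 62.1% in T+WSD 8, 63.1% in C 1 and 64.3% in T 13, the 3 lowest of all animals, but WSD 20 at 66.6% lay above WSD 22 at 65.7%. The level of the median member in C 1 was 1.07%, that in T 13 1.12%, that in WSD 20 1.27% and that in T+WSD 8 1.48%, against 0.996% at most in the others. Missing values in the members were at 1.37% (C 1), 2.75% (T 13), 2.95% (WSD 20) and 2.10% (T+WSD 8), against a median of 2.15% over the 24 animals. The mean at the 113 mitochondrial CpGs of the table lay between 1.31% (T+WSD 8) and 2.41% (WSD 20) in the 4 animals, and the other animals with values at over 60 of those CpGs ran from 0.590% to 2.58%. C 5, C 3 and T+WSD 9, with values at 29, 33 and 38 of them, stood at 10.7%, 19.1% and 27.96%. The broad tiles took part as well, since C 1 had 16 of them raised (2.36%), T 13 and WSD 20 had 28 each (4.14%), and T+WSD 8 had 22 (3.25%), beside 1.72%, 3.26%, 4.25% and 3.52% of the members in the same order. Among the 431 dense tiles of 10% to under 30% the raised shares were higher. There C 1 had 11.4%, T 13 had 14.2%, WSD 20 had 17.4% and T+WSD 8 had 16.5%, and T 16 at 16.01% and T+WSD 12 at 14.8% lay among them. Raised tiles thus also occurred outside the members. Over all 100864 tiles with at least 3 CpGs, raised tiles made up from 2.22% in WSD 22 to 6.61% in T 16. C 1 at 6.37%, WSD 20 at 5.12% and T+WSD 8 at 4.87% came next after T 16 there, but T 13 at 3.88% lay in the middle of the animals.

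The raised tiles were then left out, which by itself takes away the largest deviations. Over the 3267 members that were raised in no animal, the C animals averaged 1.55% ± 0.0842, the T animals 1.54% ± 0.192, the WSD animals 1.75% ± 0.187 and the T+WSD animals 1.68% ± 0.281 (SD, n = 6 each). The 4 raised animals were still the highest of their groups there. C 1 had 1.72%, T 13 had 1.92%, WSD 20 had 2.08% and T+WSD 8 had 2.21%, against at most 1.54%, 1.52%, 1.82% and 1.79% in the other animals of those groups. With C 1, T 13, WSD 20 and T+WSD 8 left out, an alternative chosen after seeing the data, the mean over all members was 1.61% ± 0.0391 in C and 1.60% ± 0.136 in T. In the same 20 animals it was 1.78% ± 0.128 in WSD and 1.65% ± 0.149 in T+WSD (SD, n = 5 each). The 5 WSD animals ran from 1.67% to 1.93% and the 5 C animals from 1.57% to 1.66%, so these did not overlap, by a margin smaller than either SD. That separation was seen only after 4 animals had been set aside, also lies along the division of the animal numbers, and is given with no test.

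Effects of testosterone, of diet and of both were then sought tile by tile. The test was limma on arcsine-transformed tile means with all 4 groups in one fit of 100864 tiles, and p-values were adjusted by Benjamini and Hochberg over all of them. Of these, 94313 lay on chromosomes 1 to 20, and the shares over all tiles include the others, where no member could lie. No member passed an adjusted p of 0.05 in T against C, where 0.00892% of all tiles were called, in WSD against C (0.00397%), or in T+WSD against C (0.217%). In the same limma fit no member passed for the interaction (0.0178% of all tiles), the main effect of T (0%) or the main effect of WSD (0.0169%). With a difference of over 10 points asked for as well, no member passed either, and the shares of all tiles were 0.00793% for T, 0.00397% for WSD, 0.206% for T+WSD, 0.0178% for the interaction and 0.0129% for the main effect of WSD. At an unadjusted p under 0.05 limma counted 52 members for T (1.46%, against 6.72% of all tiles), 100 for WSD (2.81% against 7.44%) and 92 for T+WSD (2.59% against 10.9%). It counted 56 for the interaction (1.58% against 5.61%), 66 for the main effect of T (1.86% against 7.64%) and 120 for the main effect of WSD (3.38% against 9.42%). These counts depended on the tiles in the fit and the prior, since with only tiles of at least 20 CpGs limma counted 121, 173, 172, 138, 146 and 229 members in the same order, and with a prior that follows the mean level 96, 150, 134, 102, 107 and 181. The member shares were below those of all tiles in these fits too, at 3.404% to 6.44% against 4.48% to 8.04% in the first, and at 2.70% to 5.09% against 5.54% to 10.7% in the second. This describes low tiles in this test.

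Members whose 6 treated animals all lay on one side of the 6 controls were few. There were 10 of 3489 for T (0.287%, against 0.386% of all tiles with values in all 12 animals), 9 of them lower. There were 5 of 3519 for WSD (0.142% against 0.454%), all higher, and 17 of 3504 for T+WSD (0.485% against 1.29%), of which 7 were higher. Over all tiles 253 of 299 were lower for T, 123 of 367 were higher for WSD and 276 of 1067 were higher for T+WSD. The members' shares were below those of all tiles in each comparison.

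The differences were small. The median over the members was 0.00409 points for T against C, 0.148 points for WSD against C and 0.119 points for T+WSD against C, and the 3 comparisons share the C animals. As said above, T against C and WSD against C cannot be told apart from a batch along the animal numbers. The T animals were higher than C in 50.7% of the members, the WSD animals in 64.4% and the T+WSD animals in 62.9%, against 40.7%, 46.1% and 41.3% of all tiles. For the main effect of WSD, 68.3% of the members were higher, against 47.4% of all tiles, and 101 of the 120 members with an unadjusted p under 0.05 were higher, as were 3856 of 9503 such tiles over all. For the main effect of T, 18 of 66 such members were higher, and 1918 of 7703 over all tiles. A change of more than 5 points was found in 14 members for T (0.394%), 11 for WSD (0.309%) and 17 for T+WSD (0.478%), against 15.3%, 15.8% and 19.2% of all tiles. With the 4 raised animals left out the share of members that were higher was 46.1% for T, 61.8% for WSD and 55.4% for T+WSD, against 42.2%, 47.2% and 41.4% of all tiles, and the medians over the members were -0.0350, 0.1103 and 0.0487 points. Among these 3 medians only that for T against C changed its sign.

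**Figure D4:**
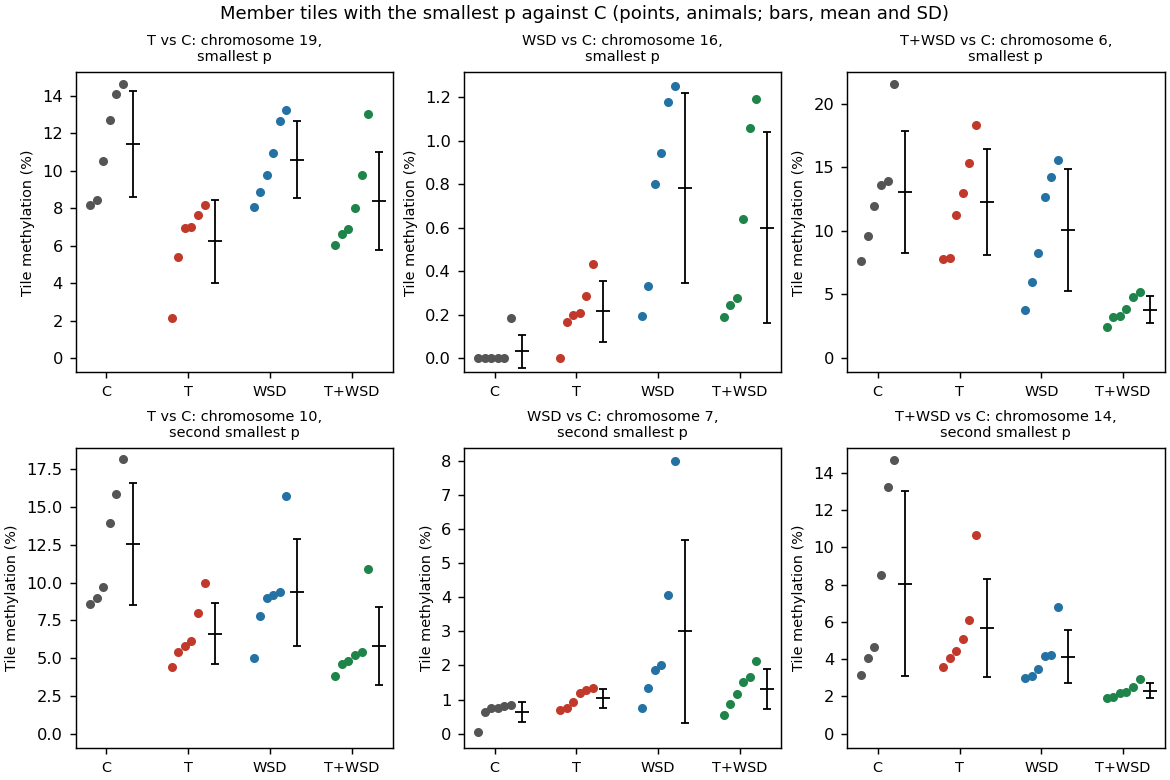
Tile methylation (in %) of each animal (points, sorted within a group) with the mean and SD of each group (bars, n = 6) for the 2 members with the smallest p in T against C, WSD against C and T+WSD against C. None passed an adjusted p of 0.05, and the nearest was the tile on chromosome 6, with 2.41% to 5.22% in T+WSD and 7.62% to 21.5% in C.

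The members nearest to a call are shown in the plot of the smallest p against C. They were picked for their p among 3555, so the exact permutation p given with each, which cannot go below 0.00216 with 924 splits of 12 animals, carries that choice. The tile nearest to the threshold was chr6:69061001-69062000 for T+WSD against C. Its 20 CpGs stood at 7.62% to 21.5% in C with a median of 12.8%, and at 2.41% to 5.22% in T+WSD with a median of 3.57%. These groups did not overlap. T ran from 7.78% to 18.3% and WSD from 3.78% to 15.5%, both overlapping C. The difference of T+WSD from C was -9.24 points (limma p = 1.22e-04, adjusted p = 0.0516, two-sided exact permutation p = 0.00216). The tile passed when T 16, WSD 19 or WSD 22 was left out of the fit, with a limma adjusted p of 0.0432, 0.0435 and 0.0439, and with no other animal left out. With C averaging 13.04% and T 12.3%, the tile is a member only because T+WSD pulled its mean under 10%, so the rule itself favoured this direction.

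The next tile for T+WSD, chr14:111468001-111469000 with 33 CpGs, was at 3.13% to 14.7% in C with a median of 6.59% and at 1.89% to 2.96% in T+WSD with a median of 2.23%. The groups did not overlap, and the difference was -5.76 points (limma adjusted p = 0.102, exact permutation p = 0.00216). For T against C the smallest p was that of chr19:1617001-1618000, whose 25 CpGs lie beside a neighbour at 82.0%. It was at 8.16% to 14.6% in C with a median of 11.6% and at 2.15% to 8.16% in T with a median of 6.98%. The difference was -5.20 points (limma adjusted p = 0.490, exact permutation p = 0.00216), and the groups met at 8.16% without crossing. The tile chr10:236001-237000, with 64 CpGs, was at 12.5% ± 4.03 in C and 6.63% ± 2.02 in T (SD, n = 6), a difference of -5.91 points (limma adjusted p = 0.559, exact permutation p = 0.0108). Its T animals, from 4.42% to 9.99%, overlapped the C animals, from 8.56% to 18.2%. In both tiles the C mean was over 10%, so they are members only through lower values in other groups, and the rule favoured a fall from C.

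The 2 members with the smallest p for WSD against C were higher in WSD, by less. In chr16:29123001-29124000, with 20 CpGs and a neighbour at 92.3%, 5 of 6 C animals were at 0 and the other at 0.185%, whereas WSD ran from 0.193% to 1.25% with a median of 0.872%. The groups did not overlap, and the difference was 0.752 points (limma adjusted p = 0.251, exact permutation p = 0.00216). T+WSD ran from 0.188% to 1.19% in the same tile, and it also had the smallest p for the main effect of WSD, with 0.569 points (limma adjusted p = 0.127). In chr7:161997001-161998000 the WSD animals ran from 0.754% to 7.99% with a median of 1.94% and the C animals from 0.0426% to 0.853%, a difference of 2.36 points (limma adjusted p = 0.417, exact permutation p = 0.00649). There the groups overlapped, and 1 WSD animal carried much of the difference.

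For the interaction, the effect of T on WSD minus the effect of T on chow, the tiles with the smallest p were chr20:71340001-71341000 and chr8:130386001-130387000. In the first the C animals averaged 4.92% ± 0.698, the T animals 3.50% ± 2.02, the WSD animals 5.12% ± 0.982 and the T+WSD animals 8.30% ± 1.28 (SD, n = 6), an interaction of 4.60 points (limma adjusted p = 0.668). The second stood at 2.12% ± 0.589, 3.06% ± 0.943, 4.37% ± 1.29 and 2.32% ± 0.800 in that order, an interaction of -2.99 points (limma adjusted p = 0.731). For the main effect of T the tiles on chromosomes 10 and 19 described above had the smallest p, with -4.74 points (limma adjusted p = 0.377) and -3.70 points (limma adjusted p = 0.409). For the main effect of WSD the tile on chromosome 6 came second, with -5.71 points (limma adjusted p = 0.141).

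Single CpGs were tested in the same way over the 841143 of the table, and one was called when its adjusted p was under 0.05 and the difference of group means over 10 points. In T+WSD against C, 1 of the 100876 CpGs in members was called (0.000991%), where 0.0069% of all CpGs were called. For the interaction 4 were called (0.00397%), against 0.0174% of all. On untransformed percentages the call for T+WSD stayed (limma adjusted p = 0.0437), and of the 4 only the CpG on chromosome 11 did (limma adjusted p = 0.0230), while the others were at 0.0976 (chromosome 20), 0.330 (chromosome 10) and 0.682 (chromosome 17). In limma none was called in members for T (0.00559% of all CpGs called), WSD (0.00559%), the main effect of T (0%) or the main effect of WSD (0.000357%). At an unadjusted p under 0.05 limma counted 3098 CpGs in members for T (3.07%, against 5.58% of all CpGs), 4147 for WSD (4.11% against 6.28%) and 4093 for T+WSD (4.06% against 7.61%). It counted 3336 for the interaction (3.31% against 5.42%), 3120 for the main effect of T (3.09% against 5.89%) and 3578 for the main effect of WSD (3.55% against 7.07%). The calls in the members were thus few in number, as they were over the whole table, and their shares were below those of all CpGs where any was called.

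**Figure D5:**
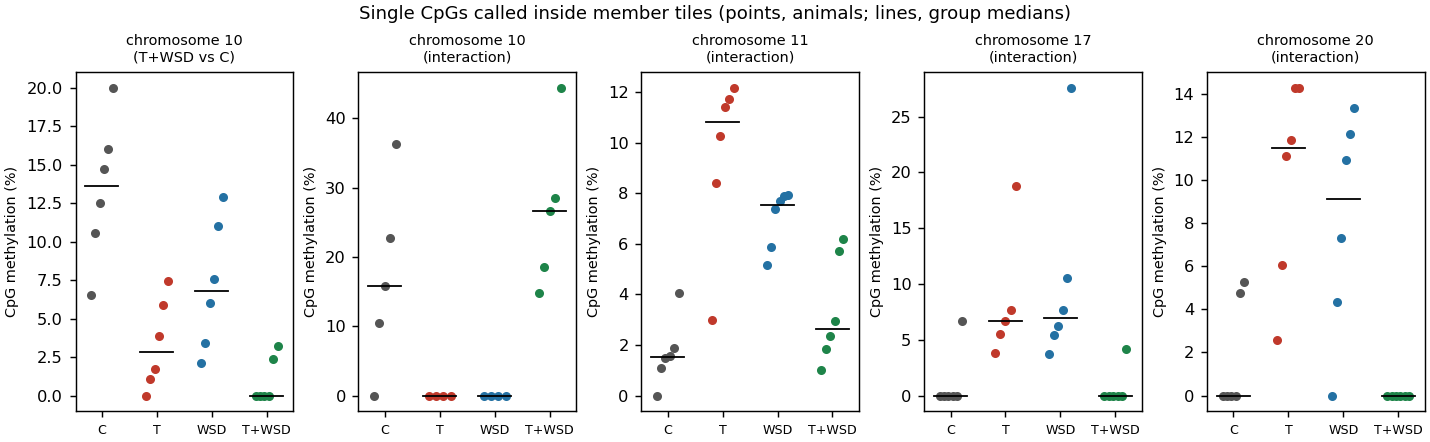
Methylation (in %) of each animal with a value (points, sorted within a group) and the median of each group (lines) at the 5 CpGs called inside members, 1 for T+WSD against C and 4 for the interaction. At the first CpG, on chromosome 10, C ran from 6.52% to 20% and T+WSD from 0% to 3.23%.

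The CpG called for T+WSD against C lies at position 236411 of chromosome 10, inside the tile chr10:236001-237000 that had the second smallest p for T against C. The C animals averaged 13.4% ± 4.66 there, the T animals 3.33% ± 2.90, the WSD animals 7.16% ± 4.21 and the T+WSD animals 0.935% ± 1.47 (SD, n = 6). The C animals ran from 6.52% to 20% and the T+WSD animals from 0% to 3.23%, so these groups did not overlap. The difference was -12.4 points (limma adjusted p = 0.0402, exact permutation p = 0.00216), and the CpG was picked as the one called, so this exact p carries that choice. As said above, its tile is a member only through groups lower than C, so the rule favoured a fall from C here too. The other 63 CpGs of the tile differed by a median of -2.80 points, with 1 that differed by 34.4 points in size without a call, and the tile as a whole by -6.75 points.

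At the 4 CpGs called for the interaction, the means of C and T+WSD lay on one side and those of T and WSD on the other, as the plot of the called CpGs shows. This is also the division of the animal numbers, 1 to 12 against 13 to 24, so an interaction and a batch of this kind cannot be told apart. At position 132370454 of chromosome 11 the C animals averaged 1.68% ± 1.33, the T animals 9.50% ± 3.46, the WSD animals 6.99% ± 1.18 and the T+WSD animals 3.34% ± 2.12 (SD, n = 6; interaction -11.5 points, limma adjusted p = 0.0365). At position 20980346 of chromosome 20 they were 1.67% ± 2.59, 10.03% ± 4.74, 8.01% ± 5.13 and 0% in all 6 T+WSD animals (interaction -16.4 points, limma adjusted p = 0.0329). At position 32112281 of chromosome 17 they were 1.11% ± 2.72, 8.50% ± 5.90 over 5 animals, 10.2% ± 8.83 and 0.695% ± 1.70 (interaction -16.9 points, limma adjusted p = 0.0467).

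The CpG at position 1886998 of chromosome 10 had a value in 18 of 24 animals. It was at 0 in all 4 T and all 4 WSD animals with a value, at 0% to 36.4% in 5 C animals and at 14.8% to 44.4% in 5 T+WSD animals. The interaction was 43.7 points (limma adjusted p = 0.0376), and the fit used only the animals with a value. The other CpGs of these 4 tiles moved less at the median, with an interaction of 1.18 points around the chromosome 10 CpG, 0.789 points on chromosome 11, -1.03 points on chromosome 17 and -0.516 points on chromosome 20. On chromosome 17 a single one reached a larger size than the called CpG without a call, 28.3 against 16.9 points. In the other tiles the largest size, in either direction, was below that of the called CpG. It was 31.97 points around the chromosome 10 CpG, 9.15 points on chromosome 20 and 5.92 points on chromosome 11.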

How the data were processed

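The authors checked reads with FastQC 0.11.5, trimmed them with Trim Galore 0.4.2 and aligned them with Bismark 0.16.1, per the submitters' processing notes and the methods of the study, and the positions are those of rheMac8. The deposited values are percentages of methylated reads per CpG and animal, unscaled. Per the methods, the authors filtered CpGs on coverage in at least 4 of 6 animals of each group. Read counts per CpG were not used here, so the depth per CpG beyond that minimum was not examined and no interval was computed.

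From these percentages, tile values were computed as the mean of the CpGs with a value in an animal. The 1000-bp tiles with at least 3 CpGs and the single CpGs were tested in limma 3.58.1 (R 4.3.3) on arcsine-transformed rates, with Benjamini-Hochberg adjustment. The study used limma and this transformation for single CpGs and built regions from their p-values with Comb-p. The test of fixed tiles is therefore not that of the study. Fits used the animals with a value, and the variance prior had 3.24 degrees of freedom for tiles and 1.13 for CpGs. Other steps used Python 3.11.15, numpy 2.4.6 and pandas 2.3.3. Scripts were tested on simulated data. Single tiles were compared by exact permutation tests. Neither the gene lists nor the cell type markers listed for this work could be used, because no annotation of the build was used here.

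Tiles named in the text were the 5 members with the most CpGs, the 3 lowest, the 3 on each side of the threshold, the 5 with the largest SD, the 5 with the largest gap between 1 animal and the median, the 3 with the steepest flanks, and the 2 with the smallest p in each contrast where none was called. The members and lists were chosen with earlier results of these data known. Each animal is one replicate. Alternatives covered the tile rule, the transformation, the prior, the threshold and the animals, and 4 were added after seeing the data (leaving out 4 animals together, 2 other thresholds for a raised tile, and complete CpGs for it).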

Additional observations from a re-analysis of the deposited data

Results flagged for a closer look

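Among the per-animal values of the members, 20 values in groups of 4 to 6 animals lay far from the rest of their group by Dixon's criterion. This was looked at in 37 groups of values. Chance gives about 1 in 20 where values are independent and not selected, which does not hold here: 4 of the values are means over tiles chosen as raised, 4 are at a CpG chosen for its p, and the same animals recur in linked measures, so the number 20 is not set against chance. Each of the 4 raised animals stood apart in its group in the mean over the members (C 1 2.18%, T 13 2.64%, WSD 20 3.01%, T+WSD 8 2.999%). They also stood apart in the number of raised members (61, 116, 151 and 125 in that order). In the mean over the 89 shared tiles they were at 14.03%, 20.2%, 24.2% and 22.5%, but those tiles were chosen by such values. T 16 was high in its share of values at 0 (85.2%) and of missing values (17.4%), C 5 in missing values (9.80%), and T+WSD 8 was low in values at 0 (62.1%).

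At position 32112281 of chromosome 17 C 3 with 6.67%, T 13 with 18.8%, WSD 19 with 27.6% and T+WSD 8 with 4.17% were each far above the others of their group. By the interaction term in limma, T had unlike effects on chow and on WSD at 4 CpGs: by 43.7 points at position 1886998 of chromosome 10, -11.5 at 132370454 of chromosome 11, -16.9 at 32112281 of chromosome 17 and -16.4 at 20980346 of chromosome 20. As described, a batch along the animal numbers cannot be told apart from these.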

How the results depend on the processing

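The number of members, 3555, became 1209 with at least 30 CpGs, 1864 when runs of 2 tiles also counted as broad, 271 when both neighbours had to be measured and 1865 with only CpGs measured in all animals. Under the other rules tried it was 3388 to 3641, and 3553 to 3561 when 1 animal was left out. With 5 in place of 10 points, raised members numbered 758 (at least 1 animal), 201 (at least 3), 131 (C 1), 221 (T 13), 283 (WSD 20), 259 (T+WSD 8) and 103 (T 16). With 20 points these were 99, 30, 12, 40, 64, 51 and 14. C 1 then fell below T 16. With only complete CpGs they were 211, 67, 50, 84, 111, 92 and 29, over fewer members. Called members for T+WSD against C rose from 0 to 1 at an adjusted p under 0.1 and to 3 with complete CpGs: chr10:236001-237000 (-7.65 points, adjusted p = 0.0341), chr12:12381001-12382000 (3.85, 0.0388) and chr7:79885001-79886000 (-4.68, 0.0268), all from limma. Leaving out 1 animal gave 0 to 1, the 1 being chr6:69061001-69062000 without T 16 (limma adjusted p = 0.0432), WSD 19 (0.0435) or WSD 22 (0.0439). The other contrasts gave 0 throughout, also without the 4 raised animals together. Called CpGs for T+WSD against C numbered 4 at an adjusted p under 0.1, and those for the interaction 1, on chromosome 11, on untransformed percentages. Against dense tiles of 10% to under 30% in place of broad tiles, the difference in missing values was -0.0540 points, with no difference detected (two-sided permutation p = 0.77). Why these values moved was not tested, apart from the smaller numbers of tiles that stricter rules leave. No paired analysis was possible because no animal number occurs in more than 1 group. Read depth per CpG, not examined here beyond the minimum of the authors, limits all values near 0.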
